A study of Drosophila melanogaster with 2 samples.

Results

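Heat shock and chaperone genes were taken as the protein-coding genes whose symbol starts with Hsp, Hsc70-, CCT followed by a digit, or DnaJ. There were 35 of them among 13968 protein-coding genes on the 7 main chromosomes of Drosophila melanogaster. They comprised 6 small Hsp genes, 7 Hsp70 genes, 5 Hsc70 genes, Hsp83, 12 chaperonin genes, 3 DnaJ genes and Hsp110. The data are ChIP-seq peak lists from 1 group of samples, transgenic flies carrying the product of the gene CG1024 fused to eGFP, with 2 biological replicates. Chromatin came from whole embryos 0 to 24 hours old, was sonicated to 200 to 800 bp and was precipitated with an antibody to GFP. No heat treatment is named in the labels, and whole embryos mix all cell types and stages, so that binding in few cells and weak binding in many cannot be told apart. The labels do not name the promoter that drives the fusion, and no embryos without it were analysed here as a group of their own. Read counts are not part of the lists, and the depth of either replicate is therefore unknown.

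Chaperones bind unfolded proteins, keep them from aggregating and help them fold. Small heat shock proteins hold unfolding proteins without ATP, Hsp70 proteins bind and release them in ATP-driven cycles set by DnaJ partners, Hsp90 (Hsp83 in the fly) acts late on kinases and receptors, and chaperonins enclose proteins in a ring. Heat, through the heat shock factor Hsf, switches on the inducible members by way of repeated GAA and TTC units in their promoters, and in the fly the GAGA factor keeps several of these promoters open beforehand. The cognate Hsc70 genes and the CCT ring subunits are known for being transcribed without heat.

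In the conservative series-level list, 9 of the 35 genes (25.7%) had a peak summit at most 500 bp from a start site of transcription (TSS) in the annotation, against 14.1% of all protein-coding genes (1975 of 13968). This list holds peaks that passed the authors' threshold on the irreproducible discovery rate (IDR), all of them at a global IDR of 0.01 or below. The 9 genes were Hsp27, Hsp26, Hsp22, Hsc70-4, Hsc70-5, Hsp83, CCT3, CCT8 and DnaJ-H, each with a summit of its own. Their strongest peaks stood at Hsp27, Hsp83, Hsc70-4 and Hsp26, and none of the 7 Hsp70 genes had one. The shares describe a complete list of genes and were not tested.

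The reference sequence (dm6) around the summits that the results turn on is shown here, read on the strand of the gene. Where no untranslated region is annotated, the summit stands in the middle with 60 bases each side. At Hsp83 and DnaJ-1, whose windows hold annotated untranslated sequence, 30 bases around the GAANNTTC match nearest the summit are given. Capitals mark GAANNTTC and TTCNNGAA, the 2 arrangements of a pair of heat shock units, and also GAGAG (the GAGA factor's core), CACTG and TATCGATA, on either strand and with overlaps joined. Hsp70Ba and DnaJ-1 are shown for contrast, since their summits are in the ranked list and did not pass the threshold.
Hsp27, chr3L:9383859-9383979, plus strand: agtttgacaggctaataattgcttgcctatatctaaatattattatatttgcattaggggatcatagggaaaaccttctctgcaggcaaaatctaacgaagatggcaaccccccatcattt
Hsp26, chr3L:9377495-9377615, minus strand: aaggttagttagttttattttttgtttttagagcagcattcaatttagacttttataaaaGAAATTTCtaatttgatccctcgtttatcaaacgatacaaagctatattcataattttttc
Hsp83, chr3L:3193137-3193166, plus strand: agaagcctctaGAAGTTTCtagagacttcc
Hsc70-4, chr3R:15242501-15242621, plus strand: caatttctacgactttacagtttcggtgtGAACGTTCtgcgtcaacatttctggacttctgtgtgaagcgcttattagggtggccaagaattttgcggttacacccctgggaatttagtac
Hsp70Ba, chr3R:12467834-12467954, minus strand: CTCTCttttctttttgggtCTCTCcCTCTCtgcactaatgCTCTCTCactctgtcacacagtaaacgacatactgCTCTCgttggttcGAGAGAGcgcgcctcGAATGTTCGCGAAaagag
DnaJ-1, chr3L:5752178-5752207, minus strand: agaagcatccaGAAATTTCgacgtagacga
The window of Hsp27, the strongest of the 9 peaks, held none of these letters. The summit of Hsp26 fell within a GAANNTTC match, and the window of Hsp70Ba was crowded with GAGAG.

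By group, a conservative summit was found at 3 of 6 small Hsp genes (50%), 2 of 5 Hsc70 genes (40%), 1 of 3 DnaJ genes (33.3%), 2 of 12 chaperonin genes (16.7%), Hsp83, and neither Hsp110 nor any of the 7 Hsp70 genes. The chaperonin share was thus close to the 14.1% over all genes, and the groups are too small for the other shares to be set against each other. The other series-level list, which is less strict, gave the same 9 genes. In the thresholded list of replicate 1 alone, 6 of 35 genes (17.1%) had a promoter summit, against 11.4% of all genes. In the thresholded list of replicate 2 alone the count was also 6 of 35 (17.1%), against 10.5% of all genes. Hsp26, Hsp27, Hsc70-4, Hsc70-5 and Hsp83 were in both replicates' lists, CCT3 in that of replicate 1 and CCT8 in that of replicate 2, and Hsp22 and DnaJ-H in neither.

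**Figure D1:**
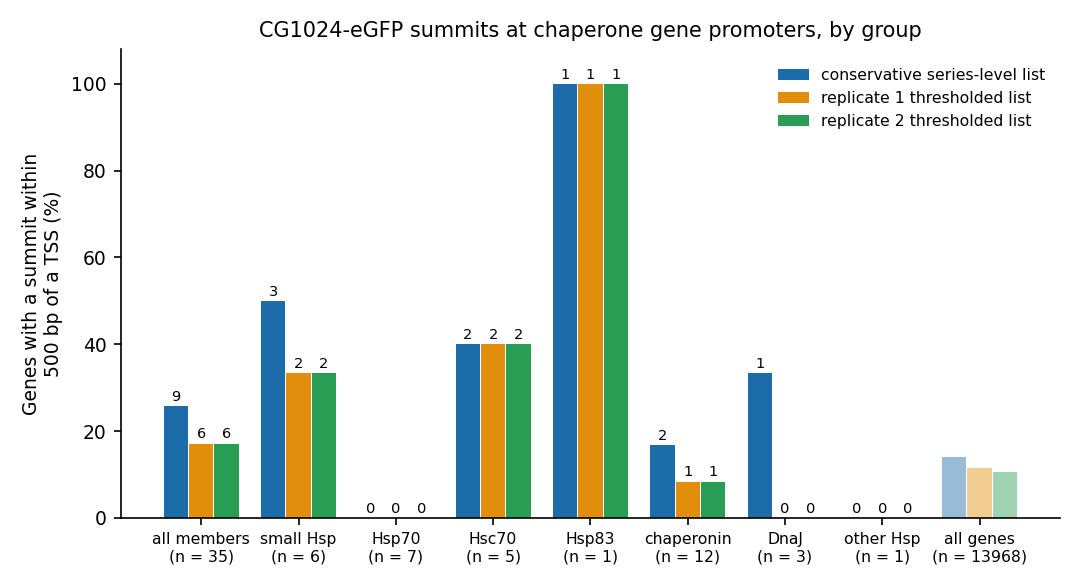
Percentage of genes with a summit within 500 bp of a TSS, for all 35 heat shock and chaperone genes, for each group, and at the right for all 13968 protein-coding genes. Bars are the conservative list and the thresholded list of each replicate, and the number above a bar is the count of genes. The bars for small Hsp and Hsc70 genes stand above those for all genes, and those for the 7 Hsp70 genes are at 0.

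The signal, the authors' peak caller value with no stated scale, had a median of 92.3 over the 9 peaks (range 66.0 to 283), against 103 over the 1437 conservative peaks that lie at any protein-coding promoter. The 4 strongest lay above that median and the other 5 below it. Their replicate 1 to replicate 2 signal ratio had a median of 1.08, against 1.01 over the promoter peaks of all genes.

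Hsp27, a small heat shock protein found in the nucleus, had the strongest peak. Its signal was 283 in the series-level list, with 146 in replicate 1 and 135 in replicate 2. This was above 85.7% of promoter peaks and ranked 292 of 3401 in the list. The summit, at chr3L:9383919, lay 144 bp upstream of the TSS in sequence with no annotated transcript, and no other gene had a TSS within 500 bp. Hsp26, a cytosolic small heat shock protein whose promoter is a textbook case of GAGA factor binding, had 135, with 83.0 in replicate 1 and 58.2 in replicate 2. Its summit lay 128 bp upstream. Hsp22, the mitochondrial small heat shock protein, had the weakest of the 9 peaks, with 66.0 in the series-level list, 43.1 in replicate 1 and 27.2 in replicate 2. Its summit lay 427 bp upstream of 1 of its 2 annotated TSSs and 639 bp downstream of the other. There it fell within the 5' untranslated region of the longer Hsp22 transcript, which is also annotated as 3' untranslated region of CG4456.

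The 6 small Hsp genes lie together in a cluster of 14184 bp on chromosome 3L (chr3L:9371511-9385694), with CG4456 and CG4461 among them. Only 3 conservative peaks fell in it, those of Hsp22, Hsp26 and Hsp27, among 20 peaks of the ranked list, which also keeps peaks that failed the threshold. The replicates' own ranked lists held 16 peaks there in replicate 1 and 12 in replicate 2. Hsp23, Hsp67Ba and Hsp67Bc had ranked peaks of 25.4, 17.7 and 39.6, against a median of 29.1 over the 11097 genes with a ranked promoter peak. Hsp67Bc came nearest to the threshold of these, at a global IDR of 0.063 with 19.3 in replicate 1 and 22.5 in replicate 2. Ranked signal thus varied widely within the cluster, with Hsp27 at 283 and Hsp67Ba at 17.7.

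**Figure D2:**
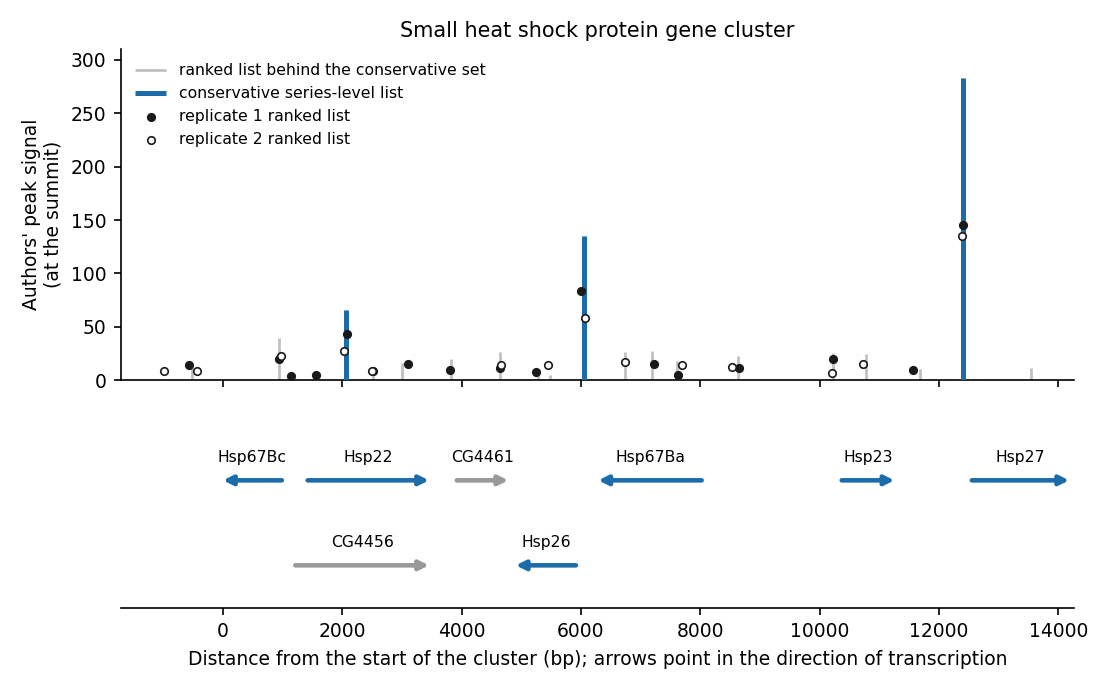
Peak signal along the small Hsp cluster (upper panel, linear axis) and its genes (lower panel, arrows pointing in the direction of transcription), against distance in bp from the start of the cluster. Blue lines are the conservative peaks, grey lines the ranked peaks behind them, filled points replicate 1 and open points replicate 2. The 3 blue lines stand at Hsp22 (66.0), Hsp26 (135) and Hsp27 (283), and both replicates have a point at each.

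Among the cognate genes, Hsc70-4, the main constitutive cytosolic Hsp70 of the fly, had a signal of 162, with 73.4 in replicate 1 and 85.5 in replicate 2. Its summit lay 126 bp upstream of its first TSS and 325 bp upstream of that of tefu, which is transcribed the other way. Hsc70-5, the mitochondrial Hsp70, had 92.3, with 49.0 in replicate 1 and 48.0 in replicate 2. The 2 replicates were nearly equal there, and the summit, 173 bp upstream of Hsc70-5, was nearer to CG8531, at 128 bp. Hsc70-3, the Hsp70 of the endoplasmic reticulum (BiP), passed the threshold and lay just outside the window: its nearest conservative summit stood 508 bp upstream, with a signal of 62.8, a rank of 2745 and a global IDR of 0.00661. Replicate 1 had 41.9 at that place, replicate 2 had no overlapping ranked peak, and the peak is absent from the other series-level list. Within the window, Hsc70-3 had a ranked peak of 24.7. Hsc70-2 had one of 16.3, and Hsc70-1 none in any list.

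Hsp83, the fly Hsp90, had the second highest signal, 243, and the widest split between replicates among the stronger peaks, with 165 in replicate 1 and 70.4 in replicate 2. Their ratio of 2.35 was higher than 98.9% of the ratios at promoter peaks of all genes. Both replicates' thresholded lists held the peak, so that its presence did not rest on 1 replicate. Its summit stood 99 bp upstream of 1 annotated TSS and 148 bp downstream of the other, within the 5' untranslated region of the longer transcript. Of the 952 words of 50 bases within 500 bp of its TSS, 96.4% occur once in the genome.

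**Figure D3:**
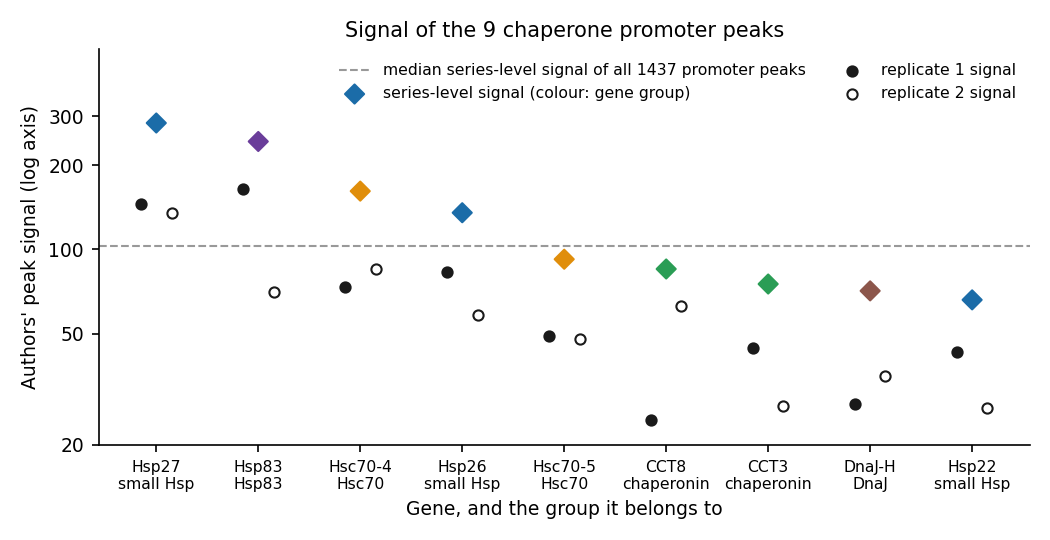
Authors' peak signal (log axis) at the 9 conservative promoter peaks, ordered from strongest to weakest. Diamonds are the series-level signal coloured by group, filled points replicate 1, open points replicate 2, and the dashed line is the median over the 1437 promoter peaks of all genes. Hsp27, Hsp83, Hsc70-4 and Hsp26 stand above the line, and the replicates lie farthest apart at Hsp83 and CCT8.

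The CCT genes code for the ring that folds actin and tubulin. Of the 8, CCT8 and CCT3 had conservative summits, both near the edge of the window, at 497 and 488 bp upstream. CCT8 had 85.2, with 24.5 in replicate 1 and 63.0 in replicate 2. The ratio of 0.389 was lower than all but 0.21% of those at promoter peaks. CCT3 had 75.2, with 44.5 in replicate 1 and 27.5 in replicate 2. Both summits lay nearer to another gene's TSS, CG30349 at 31 bp for CCT8 and CG10324 at 113 bp for CCT3, and which gene either peak belongs to was not tested. The other chaperonin genes had weaker ranked peaks or none, the highest at Hsp60A, the mitochondrial chaperonin, with 44.5. CCT4 followed with 38.0 and CCT5 with 37.4. CCT7, Hsp60D, Hsp60C, CCT1 and CCT2 had between 12.96 and 23.6, CCT6 had a peak in replicate 1 alone (19.8), and Hsp60B had none.

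DnaJ-H, which codes for a J-domain partner of Hsp70, had 71.1, with 28.0 in replicate 1 and 35.4 in replicate 2. Its summit lay 270 bp upstream of the start of the shorter transcript, within an intron of the longer one, and 276 bp upstream of Sirt1. DnaJ-1, the heat-inducible fly Hsp40, had a ranked peak of 46.2 at a global IDR of 0.411, with 33.4 in replicate 1 and 14.5 in replicate 2. DnaJ-60 had 21.2. Hsp110, which helps Hsp70 exchange its nucleotide, had a ranked peak of 38.7 at a global IDR of 0.166.

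None of the Hsp70 genes, the inducible core of the heat shock response, had a conservative summit, and the nearest such summit to any of them was 18622 bp away. Hsp70Ba had the strongest ranked peak of the group, 76.8 at 118 bp upstream, above the series-level signal of Hsp22, CCT3 and DnaJ-H. It failed the threshold at a global IDR of 0.103, with 61.3 in replicate 1 and 18.0 in replicate 2. In the ranked list of replicate 1 its global IDR was 0.0031, below 0.01, and in that of replicate 2 it was 0.802. The thresholded list of replicate 1 nevertheless lacked the Hsp70Ba peak, and the reason was not tested. Of the 326 ranked peaks within 5% of the series-level signal of Hsp70Ba, 291 (89.3%) were at the threshold. Hsp70Ab had 44.96 (global IDR 0.752), with 34.6 in replicate 1 and 10.4 in replicate 2. Hsp68 had a peak in replicate 1 only, 34.6 at 3 bp from the TSS, and Hsp70Aa, Hsp70Bb, Hsp70Bbb and Hsp70Bc had none in any ranked list. At every Hsp70 gene with any ranked peak, replicate 1 was thus the higher.

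The Hsp70A and Hsp70B genes are near-identical copies, and their values are uncertain, since reads from one copy can be placed at another or dropped. Within 500 bp of the TSS, the share of 50-base words that occur once in the genome was 42.5% at Hsp70Ba, 25.1% at Hsp70Aa, 22.9% at Hsp70Ab, 6.62% at Hsp70Bb, 5.25% at Hsp70Bbb and 0% at Hsp70Bc. The copy with the most unique sequence was the one with the highest ranked signal. Hsp70Aa and Hsp70Ab had similar shares and only Hsp70Ab had a peak, but reads from either copy can be placed at the other. At Hsp68, which also lacked a conservative peak, 100% of the words were unique. The part of repeated sequence in the 6 other Hsp70 values was not tested.

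Over the ranked lists, 27 of the 35 genes (77.1%) had a promoter summit in the series-level ranking, against 79.4% of all genes. The share was 77.1% (27 genes) in replicate 1, against 70.4% of all genes, and 71.4% (25 genes) in replicate 2, against 71.6% of all genes. At this permissive level the chaperone genes were close to the background. Their ranked signal had a median of 39.6, against 29.1 over all genes with such a summit.

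The strongest ranked promoter peaks of the replicates overlapped at 18 of the 35 genes. Replicate 1 exceeded 2 times replicate 2 at 5 of the 18 (27.8%), against 11.1% of the 5573 genes of this kind overall. The 5 were Hsp70Ba (ratio 3.42), Hsp70Ab (3.34), Hsp83 (2.35), DnaJ-1 (2.31) and CCT5 (2.03). The opposite, replicate 2 over 2 times replicate 1, was seen at 3 of the 18 (16.7%), against 3.43% of the 5573 genes: CCT8 (ratio 0.389), Hsp67Ba (0.354) and Hsp60C (0.323). In replicate 1, Hsp67Ba had a signal of 4.87 and Hsp60C of 3.98, against a median of 12.9 over all ranked peaks of that replicate, and CCT8 had 24.5. In replicate 2, Hsp70Ab had 10.4, CCT5 11.99 and DnaJ-1 14.5, against a median of 11.2 over all ranked peaks of that replicate. Hsp70Ba had 18.0 there and Hsp83 had 70.4. Wide splits between the replicates thus occurred in both directions, and some in each direction rest on weak peaks. Those of Hsp67Ba and Hsp60C rest on replicate 1 peaks below the median, and that of Hsp70Ab on a replicate 2 peak below it. The values of Hsp70Ab and Hsp70Ba are also uncertain because of their repeated sequence. The median ratio was 1.31 over the 18 genes, against 1.09 over all. The ratio is a value of 1 library over another, so it carries any difference between them in depth or quality, and its cause was not tested. Of the other small Hsp genes, Hsp22 had a ratio of 1.58, Hsp26 of 1.43, Hsp27 of 1.08 and Hsp67Bc of 0.859. Over the 9 conservative peaks, the replicates' signals had a Spearman correlation of 0.60, against 0.816 over the 1426 promoter peaks of all genes with a peak in both; the peaks share the 2 libraries.

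**Figure D4:**
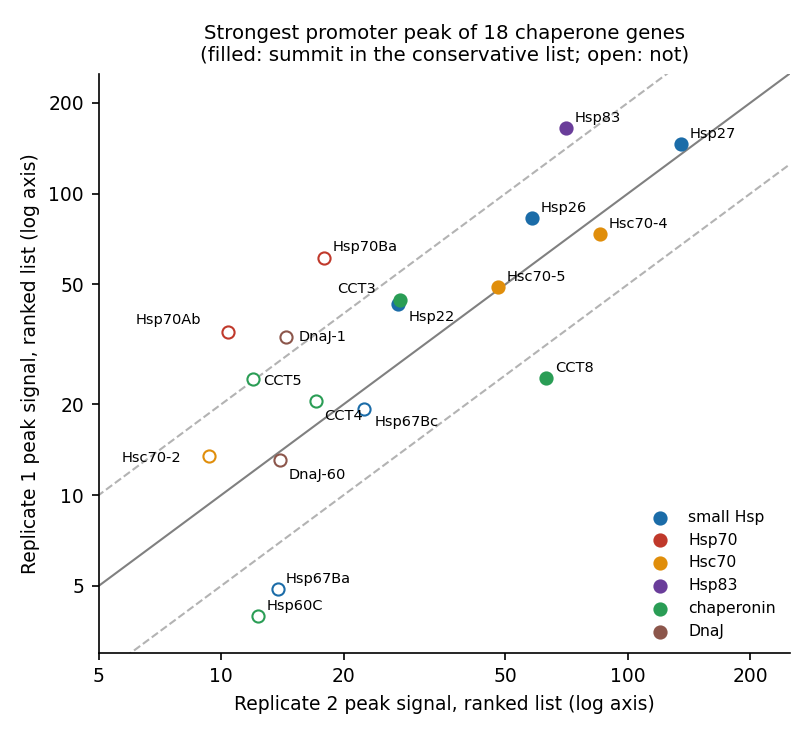
Peak signal in replicate 1 against replicate 2 (log axes) for the 18 genes whose strongest ranked promoter peaks overlap between replicates. Filled points have a conservative summit, open points do not, the solid line marks equal signal and the dashed lines a ratio of 2 either way. Hsp70Ba, Hsp70Ab, Hsp83, DnaJ-1 and CCT5 lie above the upper dashed line, and CCT8 lies below the lower one with Hsp67Ba and Hsp60C.

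All 9 summits lay upstream of the nearest TSS of their gene, against 87.5% of the genes with a conservative promoter summit, although those of Hsp83, Hsp22 and DnaJ-H are also inside a longer transcript of the same gene. The median distance was 173 bp, against 120 bp. Summits more than 400 bp away made up 3 of the 9 (33.3%), those of Hsp22, CCT3 and CCT8, against 7.14%. Another gene's TSS lay within 500 bp at 5 of the 9 summits (55.6%) and was the nearer one at 3. Counted once per peak, 35.3% of all genes' promoter peaks had TSSs of 2 or more genes. The 9 were drawn by gene, and a shared peak is then drawn through each of its genes, so these 2 shares are not alike. The summits of the 4 strongest peaks stood between 99 and 144 bp upstream of the nearest TSS of their gene, which at Hsp83 is the internal one.

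Heat shock units were looked for as GAANNTTC and TTCNNGAA on both strands, and a 3-unit element as the joined form of both, 13 bases long. In the 300 bases from 250 before to 50 after any TSS, GAANNTTC was present at 19 of the 35 genes (54.3%), against 12% of all genes. TTCNNGAA was present at 13 (37.1%), against 9.95%. The 3-unit element was present at 9 (25.7%), against 0.566%: all 7 Hsp70 genes, Hsc70-4 and DnaJ-H. These elements are shown for 5 of the 9, from 5' to 3' on the strand of the gene, to set the Hsp70 genes beside the bound genes that share the element.
Hsp68, chr3R:24057470-24057492, minus strand: TTCTCGAAATTTCCTGAACTTTC
Hsp70Ab, chr3R:11958478-11958490, plus strand: GAATGTTCGCGAA
Hsp70Ba, chr3R:12467839-12467851, minus strand: GAATGTTCGCGAA
Hsc70-4, chr3R:15242951-15242963, plus strand: TTCTCGAACTTTC
DnaJ-H, chr2L:13165112-13165124, minus strand: TTCCAGAACGTTC
The same 13 bases stood at Hsp70Ab and Hsp70Ba, and also at the 4 other Hsp70A and Hsp70B genes. The element of Hsc70-4 belongs to an internal TSS of that gene, 390 bp downstream of the summit.

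Heat shock letters in the promoter and conservative summits were counted together, with no test of their association. Of the 19 genes with GAANNTTC, 6 had a conservative summit, as did 3 of the 16 genes without it. Among all protein-coding genes, 15.8% of the 1672 with GAANNTTC had one, against the 14.1% overall. Of the 9 genes with a 3-unit element 2 had a summit, and of all 79 such genes 18 (22.8%) did. Only 2 of 3397 conservative summits (0.0589%) had a 3-unit element within 100 bp, and none of the 9 was among them.

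Within 100 bp of the summit, GAANNTTC was found at 3 of the 9 peaks (33.3%), against 5.36% of the 3397 conservative summits. These 3397 include summits away from promoters, and shares over promoter summits alone were not counted. The match overlapped the summit at Hsp26. Its nearest base lay 24 bp upstream of the summit at Hsc70-4 and 31 bp downstream at Hsp83. CACTG was found at 2 of the 9 (22.2%), Hsp83 and Hsc70-5, against 51.8% of conservative summits. It was searched because earlier results of these same data had it around the summits, so the 51.8% is not independent of that choice. GAGAG was found at 2 (22.2%), Hsp26 and Hsp22, against 23.7%, and TATCGATA, the DNA replication-related element, at 1, CCT3, against 4.27%. TATAAA was found at 5 (55.6%), against 33%. These matches describe letters in a window and show no binding of any factor.

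The other proteins that work with these chaperones were taken from a list of 29 symbols, of which 28 matched a gene. Of these, 5 (17.9%) had a conservative promoter summit, against the 14.1% over all genes. They were mrj, which codes for a J-domain protein, with 335 (192 in replicate 1 and 156 in replicate 2), and mgr, a prefoldin subunit, with 213 (104 in replicate 1 and 94.0 in replicate 2). Pfdn6, another prefoldin subunit, had 109 (40.8 in replicate 1 and 65.8 in replicate 2). Gp93, the Hsp90 of the endoplasmic reticulum, had 70.2 (29.6 in replicate 1 and 37.3 in replicate 2). The fifth, stv, a BAG-family partner of Hsp70, had 75.4, with 35.7 in replicate 1. In replicate 2 the strongest promoter peak of stv had 14.5, lay 352 bp downstream of the TSS and did not overlap that of replicate 1. The mrj signal was the only one above that of Hsp27. Hsf, the heat shock factor itself, had no peak at its promoter in the series-level lists and 7.27 in the ranked list of replicate 1 only.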

How the data were processed

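The authors deposited peak lists on dm6 for each replicate and for the pair. For the aligner and the peak caller, neither name nor version is given in the sources used here. In each list the deposited signal is the authors' own peak value, with no stated scale. The ranked lists, as the authors deposited them, add the −log10 of the global IDR. All 3401 conservative peaks matched a row of the ranked list with a global IDR no higher than 0.01. Of the 3502 ranked peaks at or below that value, 101 were not in the conservative list. No depth is given. Nothing says that the biological replicates share more than their strain.

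Positions were made 1-based, and genes and TSSs came from Ensembl release 115, and every peak on the 7 chromosomes used fell within the chromosome lengths of the dm6 reference. A gene took its strongest peak with a summit within 500 bp of any TSS. A replicate's signal at a conservative peak is the highest among its ranked peaks overlapping by at least 1 bp. Sequences came from the RefSeq dm6 assembly. Words of 50 bases were counted on both strands of that assembly. No test was run, as there is 1 group. The members and lists were chosen with earlier results of these data known. Named are the genes with a conservative summit within 1000 bp, all small Hsp, Hsp70, Hsc70 and Hsp83 genes, up to 3 others per group by ranked signal, bound partners and Hsf; the other CCT and Hsp60 genes were added after their values were seen. The gene assignment was tested on simulated summits. Tools were pandas 2.3.3, numpy 2.4.6, matplotlib 3.10.9 and scipy 1.17.1 under Python 3.11.15.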

Additional observations from a re-analysis of the deposited data

How the results depend on the processing

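The count of 9 chaperone genes with a promoter summit was 9 in the other series-level list, 6 in each replicate's list alone, 10 with a window of 1000 bp or with peak intervals in place of summits (Hsc70-3 added), and 7 with the outermost TSS alone (without Hsp22 and DnaJ-H). It was 5 with peaks above the median signal, with a window of 200 bp, and, in a setting chosen after seeing the data, with a global IDR of 0.001; all 3 left Hsp26, Hsp27, Hsc70-4, Hsc70-5 and Hsp83. In these 3 settings the chaperonin and DnaJ counts were 0, the median signal of the chaperone promoter peaks was 162, and the share of all genes with a promoter summit was 8.09%, 10.5% and 8.85%. The DnaJ count was also 0 with the outermost TSS, where the median was 135 and the share 12.6%. The share was 16.2% in the other list, 16.8% at 1000 bp, 15.2% with intervals and 18.7% at a global IDR of 0.05, also chosen after seeing the data. Leaving out either replicate gave a chaperonin count of 1, a DnaJ count of 0, medians of 66.7 to 78.2 and shares of 10.5% to 11.4%. These medians are of single-replicate signals over 6 peaks, and cannot be set against the series-level medians. Within 50 bp of the summit in place of 100, TTCNNGAA, TATCGATA and GAGAG were at 0 of the 9 peaks, against 2.18%, 2.41% and 9.66% of all conservative summits, and TATAAA at 3 (33.3%), against 19.7%. Within 300 bp of the TSS either way, TTCNNGAA was at 20 of the 35 genes (57.1%), against 20% of all genes, and CAGCTG at 15 (42.9%), against 34.6%. In the main window, from 250 before to 50 after the TSS, CAGCTG went the other way, at 5 of the 35 (14.3%), against 22.3% of all genes. The cause of these moves was not tested. No paired analysis was possible because there is 1 group. Depth is unknown, so no limit from depth could be set.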
